A study of Rattus norvegicus with 18 samples.

Results

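The genes described here are those of the heat shock response and the unfolded protein response, 35 gene symbols in all, measured in cultured rat hippocampal neurons. A probe set was taken for a gene where the array annotation gave it exactly 1 of these symbols, and a gene with several such probe sets was represented by the one with the highest mean log2 intensity over 18 arrays. This gave 32 measured genes of 14217 genes with a probe set of 1 symbol: 11 of the cytosolic heat shock system, 3 mitochondrial chaperones and 18 genes of endoplasmic reticulum (ER) stress. The symbols Hspa1b, Hspa8 and Hsp90aa1 occurred only on probe sets with several symbols and were not analysed here. The members were listed by function and not by measured values, although earlier results of these data were known when the list was made.

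All neurons were grown in dissociated culture and received a lentivirus on day 3. The virus carried either MEF2-VP16-ER, the transcription factor MEF2 joined to the VP16 activation domain and to the part of the estrogen receptor that binds ligand, or the control MEF2deltaDBD-VP16-ER, the same fusion without its DNA-binding domain. On day 10 neurons were given the estrogen receptor ligand 4-hydroxytamoxifen (4OHT) for 1 or 2.5 h or not at all (0 h), so the 0 h groups had the virus but no ligand. Each of the 6 groups held 3 biological replicates, and no group was free of virus. The labels name no strain, age or cell-type-specific promoter, and do not say whether a replicate number stands for 1 culture, day or hybridisation. The 3 arrays of a group are therefore separate samples by label only. The values are intensities as deposited, on a linear scale, and differences are of log2(intensity + 16), called log2 units below. The added 16 makes differences of dim genes smaller. The words rose, fell and changed are used for genes with an adjusted p under 0.05, from limma with the replicate number as a block and Benjamini-Hochberg adjustment over 31042 probe sets. In this whole-culture RNA, a change in the number of cells of a type and a change in RNA per cell cannot be told apart.

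Cells answer misfolded protein in the cytosol by releasing heat shock factors, which bind heat shock elements in DNA and raise the transcription of chaperones. Small heat shock proteins hold unfolding proteins in a soluble form without using ATP, while the Hsp70 system, with its J-protein partners, and the Hsp90 system refold them with ATP. In the ER a separate pathway, the unfolded protein response, runs through the sensors IRE1, PERK and ATF6 and their transcription factors XBP1, ATF4 and ATF6, which raise ER chaperones, degradation factors and, under lasting stress, the death-linked factor CHOP (gene Ddit3). In neurons these chaperones are known for their part in guarding against protein aggregates.

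Promoter sequences of 5 genes are shown here for their motif matches. Of these, Hspb1 and Hspb6 rose, and Herpud1 fell in 1 comparison. Hsph1 and Hspa5 are classical heat shock and ER stress genes that did not pass. Each run is 300 bases in the gene's own direction, from 250 bases before the annotated gene start to 50 from it onward, from RefSeq (build GRCr8). Of the 32 measured members, 27 were matched in the RefSeq promoter table; those not matched were Cryab, Hsf1, Atf6, Pdia3 and Pdia6. Capitals mark matches, on either strand, to the heat shock core GAANNTTC or TTCNNGAA (Hspb1, Hspb6, Hsph1), the ER stress element, which is CCAAT and CCACG with 9 bases of any kind between them (Hspa5), and the C/EBP-ATF composite TGATGNAA (Herpud1). The windows lie at chr12:26432252-26432551 on the minus strand for Hspb1, chr1:94934122-94934421 on the plus strand for Hspb6, chr12:10427118-10427417 on the plus strand for Hsph1, chr3:38452766-38453065 on the plus strand for Hspa5 and chr19:10614658-10614957 on the minus strand for Herpud1.
Hspb1: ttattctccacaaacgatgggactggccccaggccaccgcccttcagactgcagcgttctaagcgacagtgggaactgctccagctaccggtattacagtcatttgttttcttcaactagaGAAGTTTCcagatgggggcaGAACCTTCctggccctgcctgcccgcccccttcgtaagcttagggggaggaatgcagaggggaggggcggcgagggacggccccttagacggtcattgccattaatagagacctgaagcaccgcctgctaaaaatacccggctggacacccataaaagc
Hspb6: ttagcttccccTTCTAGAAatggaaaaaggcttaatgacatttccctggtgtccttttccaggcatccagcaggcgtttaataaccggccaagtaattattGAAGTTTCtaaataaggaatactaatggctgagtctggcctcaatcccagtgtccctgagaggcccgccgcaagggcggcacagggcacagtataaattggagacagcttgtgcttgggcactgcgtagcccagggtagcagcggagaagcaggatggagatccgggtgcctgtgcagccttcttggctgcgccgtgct
Hsph1: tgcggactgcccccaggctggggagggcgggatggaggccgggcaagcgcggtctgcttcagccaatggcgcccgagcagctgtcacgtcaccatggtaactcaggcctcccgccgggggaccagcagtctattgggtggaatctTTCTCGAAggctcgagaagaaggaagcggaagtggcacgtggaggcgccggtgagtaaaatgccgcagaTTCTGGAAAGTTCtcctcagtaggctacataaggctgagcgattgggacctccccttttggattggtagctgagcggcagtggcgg
Hspa5: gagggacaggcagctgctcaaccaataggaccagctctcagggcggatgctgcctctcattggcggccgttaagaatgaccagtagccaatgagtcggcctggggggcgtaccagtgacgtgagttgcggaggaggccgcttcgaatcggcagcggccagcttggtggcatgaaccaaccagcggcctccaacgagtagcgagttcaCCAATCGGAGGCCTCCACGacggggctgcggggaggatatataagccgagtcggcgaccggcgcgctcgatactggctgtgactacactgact
Herpud1: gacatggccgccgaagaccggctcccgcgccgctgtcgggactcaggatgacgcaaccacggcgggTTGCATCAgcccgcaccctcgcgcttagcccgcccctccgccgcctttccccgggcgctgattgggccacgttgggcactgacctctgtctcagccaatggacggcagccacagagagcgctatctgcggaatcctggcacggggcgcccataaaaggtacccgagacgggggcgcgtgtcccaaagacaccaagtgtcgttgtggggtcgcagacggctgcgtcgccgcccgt
In Hspb1 the 2 cores began 129 and 109 bases before the annotated start, and in Hspb6 they began 239 and 149 bases before it. In Hsph1 the capitals nearest to the start hold 2 overlapping cores that form a heat shock element of 3 units, defined as a core of each form sharing its middle unit. The core is contained in that longer element, so every promoter with the element also counts as one with the core.

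Few of these genes passed the test for a change. Across the 6 groups, Hspb1 and Cryab, which encode small heat shock proteins (Hsp27 in the older name, and alpha-B-crystallin), changed, which is 2 of 32 members against 2.72% of all probe sets. None of the 18 ER stress genes and none of the 3 mitochondrial chaperones changed in that test. Hspb1 alone rose in the induction at 2.5 h, which is the 2.5 h minus 0 h difference in MEF2-VP16-ER neurons less the same difference in control neurons (0.937% of all probe sets called). All these member calls rest on the replicate block: a fit without it called 0 of the 32 members in each of the 10 comparisons, although at an unadjusted p under 0.05 it had 2 of 32 members across the groups (6.54% of all probe sets) and none in the induction at 2.5 h (4.78%). With the replicate number as a random effect, Hspb1 was called across the groups and between 0 and 2.5 h of MEF2-VP16-ER, and no member was called in the induction at 2.5 h.

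Hspb1 showed the largest difference of all members in each comparison that includes MEF2-VP16-ER neurons at 2.5 h. Its intensity in those neurons was 1118 in replicate 1, 654 in replicate 2 and 571 in replicate 3. The same neurons at 0 h gave 443, 295 and 161, and at 1 h 558, 343 and 189, in the same order of replicates. Within each replicate number the 2.5 h array was by far the highest of the 3 times, and the lowest value at 2.5 h (571) lay above the highest at 0 h (443). Control neurons had 378, 248 and 118 at 0 h, 382, 263 and 102 at 1 h, and 327, 192 and 135 at 2.5 h. In control neurons the 3 times overlapped entirely, while replicate 1 was always the highest and replicate 3 the lowest.

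From 0 to 2.5 h of 4OHT, Hspb1 rose by 1.38 ± 0.14 log2 units in MEF2-VP16-ER neurons (SE, 3 arrays a group, adjusted p = 2.14e-05, 0.540 without the replicate block), with 1.30, 1.11 and 1.73 in the 3 replicate numbers. Its change in control neurons was -0.12 ± 0.14 (adjusted p = 0.999). The induction at 2.5 h was 1.50 ± 0.19, a 2.84-fold difference (adjusted p = 0.000685, 1.00 without the block), and the 3 replicate numbers gave 1.50, 1.45 and 1.56. Replicate 1 was at 2.61-fold the level of replicate 3 over the 6 groups, yet the inductions within the replicate numbers lay close together. At 1 h the induction was 0.27 ± 0.19 (adjusted p = 0.686), and that at 2.5 h exceeded it by 1.23 ± 0.19 (adjusted p = 0.00812, 1.00 without the block). No other member was called in this late minus early comparison, which called 0.399% of all probe sets. That last call was lost without replicate 1, without replicate 2, and in a fit of only the groups compared. At 2.5 h itself, Hspb1 was 1.79 ± 0.14 above control neurons with MEF2-VP16-ER (adjusted p = 1.03e-06, 0.166 without the block), and before 4OHT by 0.29 ± 0.14 (adjusted p = 0.346). Leaving out any single array left the induction at 2.5 h between 1.31 and 1.64 and called in all 18 fits.

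**Figure D1:**
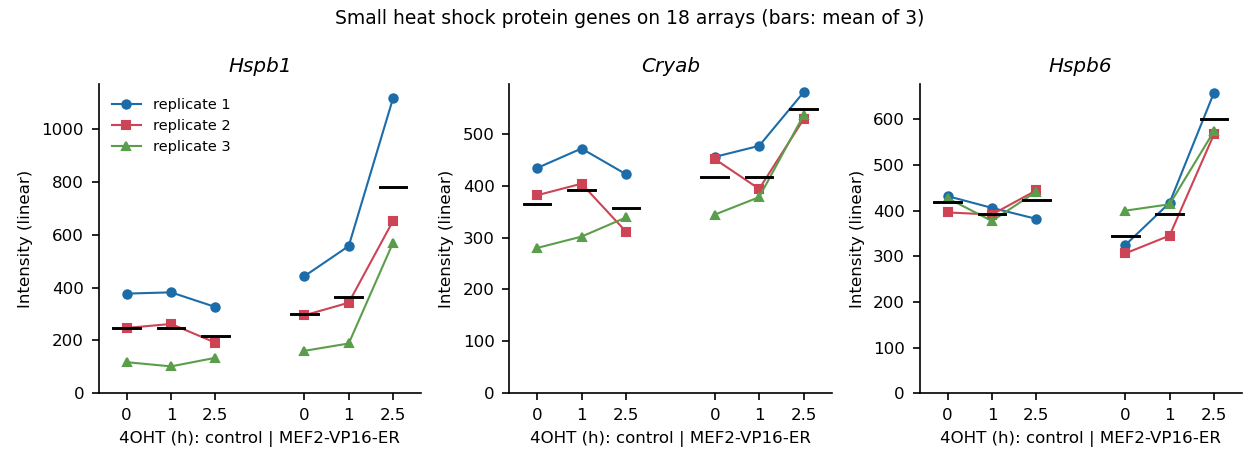
Intensity (linear) of Hspb1, Cryab and Hspb6 on each of 18 arrays, by hours of 4OHT, in control (left of each panel) and MEF2-VP16-ER neurons (right); points joined by a line share a replicate number and black bars are means of 3 arrays. In MEF2-VP16-ER neurons at 2.5 h, Hspb1 lies between 571 and 1118, Cryab between 528 and 580 and Hspb6 between 568 and 659, and control arrays stay below these ranges.

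Cryab, whose product pairs with Hsp27 in many tissues, was higher with MEF2-VP16-ER at 2.5 h, at 580, 528 and 536 in replicates 1, 2 and 3. Control neurons at that time had 422, 312 and 339. The groups did not overlap, and the difference was 0.60 ± 0.10 log2 units (adjusted p = 0.00182, 0.153 without the block), seen in 3 of 3 replicate numbers. Hspb1 and Cryab made 2 of 32 members called in that comparison, against 3.49% of all probe sets. MEF2-VP16-ER neurons had 455, 451 and 344 at 0 h and 477, 394 and 378 at 1 h, and control neurons had 434, 382 and 280 at 0 h and 472, 404 and 302 at 1 h. Only the 2.5 h arrays with MEF2-VP16-ER stood above all others. The change from 0 h in those neurons, 0.39 ± 0.10 (adjusted p = 0.0559), and the induction at 2.5 h, 0.41 ± 0.14 (adjusted p = 0.312), did not pass. The call between constructs was lost without replicate 2. That across the groups (adjusted p = 0.0146) was lost without MEF2-VP16-ER 2.5 h replicate 2 or replicate 3, and without any 1 of the 3 replicate numbers.

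Hspb6, a further small heat shock protein (Hsp20) that is not among the 35 symbols but stands in a list of other heat shock genes, also rose. At 2.5 h of 4OHT its intensity with MEF2-VP16-ER was 659, 568 and 574, against 325, 306 and 400.1 at 0 h. Control arrays lay between 378 and 445 at all times. The induction at 2.5 h was 0.77 ± 0.13 (adjusted p = 0.00534), and it passed without the replicate block too (adjusted p = 0.0371), unlike that of Hspb1. The replicate numbers gave 1.16, 0.70 and 0.46. The call was lost without replicate 1 and without replicate 2, and the rise from 0 h in MEF2-VP16-ER neurons, 0.78 ± 0.09 (adjusted p = 9.22e-05), kept its call in every fit that left out 1 array or 1 replicate number. Before 4OHT, Hspb6 differed from control neurons by -0.28 ± 0.09 with MEF2-VP16-ER (limma adjusted p = 0.220, not called), negative in each replicate number. At 2.5 h the difference between constructs was 0.49 ± 0.09 (limma adjusted p = 0.00419), a call lost without replicate 1. The induction thus also holds the lower level before 4OHT.

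The other small heat shock protein genes were mixed. Hspb3, looked up with Hspb2 and Hspb9 after these values were seen, was dim, at 78.1, 70.6 and 104.4 with MEF2-VP16-ER at 2.5 h and between 49.0 and 70.3 on the other 15 arrays. It rose by 0.41 ± 0.09 from 0 h (adjusted p = 0.0227, 0.126 without the block), a call lost without MEF2-VP16-ER 0 h replicate 2 or 3, MEF2-VP16-ER 2.5 h replicate 3 or any 1 replicate number, and its induction, 0.56 ± 0.13, did not pass (adjusted p = 0.0507). Hspb8, a partner of Bag3 in the removal of misfolded proteins, was 0.34 ± 0.11 above 0 h (adjusted p = 0.190). Its other probe set gave 0.05, and the induction at 2.5 h on the brighter probe set was 0.20 ± 0.16, not called. Hspb7 had 0.10, Hspb9 0.08 and Hspb2 0.03 in the same comparison, and none of the 3 passed.

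Several astrocyte genes had high intensities in this RNA, and small heat shock proteins are also made by glia. The 9 astrocyte markers had mean intensities from 96.5 (Slc1a2) to 19763 (Fabp7), with Slc1a3 at 10821, Gfap at 8529 and Aldh1l1 at 396. The 10 general neuronal markers ranged from 2009 (Nefl) to 17788 (Stmn2), with Tubb3 at 9279. Intensities of different probe sets do not compare transcript amounts. Of 9 astrocyte markers none was called in any comparison, and their summed intensity ranged from 57710 to 68260 with MEF2-VP16-ER at 2.5 h and from 59210 to 73920 at 0 h, overlapping. The summed intensity of 7 excitatory neuron markers was 9650 to 12730 at 2.5 h and 14300 to 16530 at 0 h without overlap. Of these 7, 2 fell, Neurod2 by 0.65 and Neurod6 by 0.66 log2 units, and the others were not called. Neurod6 was the brightest of the 7, with a mean intensity of 7778, against 139 (Tbr1) to 1906 (Nrgn) for the rest. The sum therefore follows Neurod6 most and does not show a fall of the whole list. Among 9 microglia markers none was called and the sum was at most 1456 on any array. At 2.5 h, 3 markers of other types were lower than in control neurons with MEF2-VP16-ER, each called with the block only: the oligodendrocyte gene Sox10 at -0.47 (adjusted p = 0.0349, 0.703 without the block), the fibroblast gene Dcn at -0.58 (0.00106 and 0.684) and the inhibitory neuron gene Dlx1 at -0.33 (0.0372 and 0.746). Sox10 lost its call without any 1 replicate number and Dlx1 without replicate 1 or 3. The summed intensity of the 6 inhibitory neuron markers was 3731 to 4624 with MEF2-VP16-ER and 3571 to 4520 in control neurons at that time, overlapping. The sums overlapped too for 7 fibroblast markers (2044 to 5418 and 3853 to 6653) and 7 oligodendrocyte markers (7104 to 10300 and 7615 to 11700). The part of these marker differences in the rise of the small heat shock genes was not tested.

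The rest of the cytosolic heat shock system did not pass the test. Of the 9 cytosolic members other than Hspb1 and Cryab, 0 were called by limma in the induction at 2.5 h, 1 had an unadjusted p under 0.05 (8.44% of all probe sets) and 8 were negative, with a median of -0.08 log2 units against 0.00 over all probe sets. This median was -0.03 without MEF2-VP16-ER 0 h replicate 2, -0.04 without control 2.5 h replicate 1 and -0.15 without control 2.5 h replicate 2. In the Hsp70 system, Dnajb1, a J-protein strongly induced by heat, was at -0.31 ± 0.12 (adjusted p = 0.449). Hsph1, a nucleotide exchange factor for Hsp70 of the Hsp110 family, was at -0.21 ± 0.13. Both were negative in 3 of 3 replicate numbers, and a second probe set of each gave -0.32 and -0.14. Hspa4, another Hsp110 protein, was at 0.09 ± 0.20, the J-protein Dnaja1 at -0.08 ± 0.09 and the Hsp70 co-chaperone Bag3 at -0.03 ± 0.11.

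Dnajb1 had intensities of 1155, 1491 and 1801 with MEF2-VP16-ER at 2.5 h, against 1457, 1761 and 1739 at 0 h and 1508, 1439 and 1889 in control neurons at 2.5 h, so all 3 groups overlapped. In the Hsp90 system, the abundant constitutive form Hsp90ab1 varied least, between 11860.0 and 13556 over all 18 arrays, with an induction of -0.05 ± 0.08. Stip1, which bridges Hsp70 and Hsp90, was at -0.11 ± 0.11. The transcription factor genes were close to 0 as well: Hsf1, the master factor of the heat shock response, at -0.18 ± 0.15 and Hsf2 at -0.07 ± 0.10. Their transcript levels carry no measure of factor activity, which is set on the protein. The mitochondrial chaperones Hspd1 (Hsp60), its partner Hspe1 (Hsp10) and Hspa9 (mortalin) had inductions of 0.02 ± 0.08, 0.02 ± 0.08 and 0.00 ± 0.16.

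**Figure D2:**
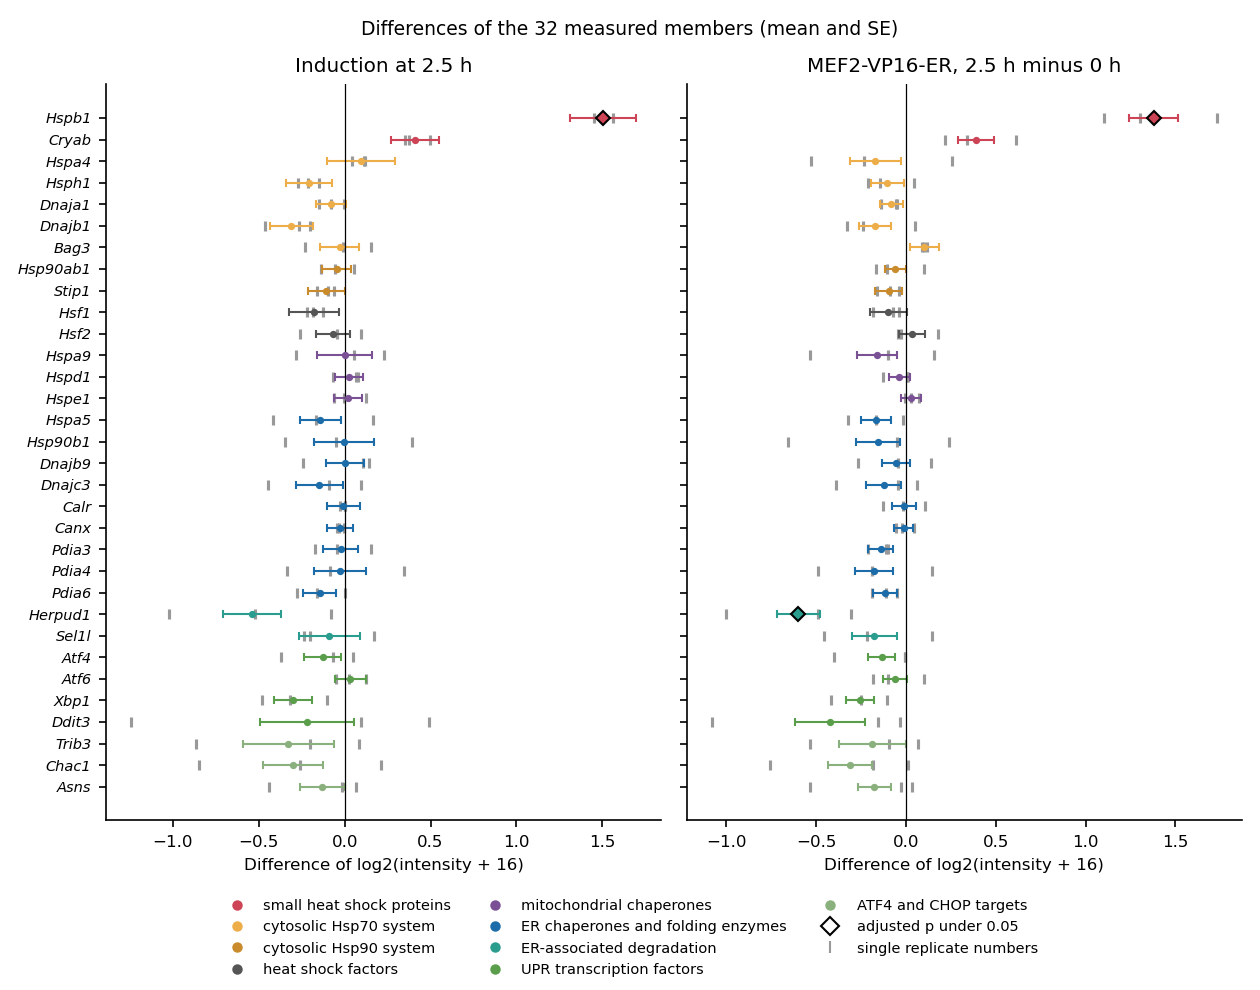
Difference in log2 units (x axis) of the 32 measured members, as the induction at 2.5 h (left) and as 2.5 h minus 0 h in MEF2-VP16-ER neurons (right); points are fitted means with SE, grey ticks the 3 replicate numbers and diamonds genes with adjusted p under 0.05. Hspb1 stands apart at 1.50 and 1.38, and Herpud1 is at -0.60 on the right, where all 18 ER stress genes are negative.

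Beyond the members, 43 of 45 further heat shock genes were measured, and 1 rose and 1 fell in the induction at 2.5 h, with a median of -0.01, where 0.937% of all probe sets were called. Apart from Hspb6 the call was Dnajb5, a J-protein of the Hsp40 family, at -0.40 ± 0.08 (adjusted p = 0.0265, 0.234 without the block). Its intensity was 1318, 1495 and 1419 with MEF2-VP16-ER at 2.5 h and between 1626 and 2047 on the other 15 arrays. The induction call held in 10 of 18 fits that left out 1 array and in none that left out a replicate number. The fall from 0 h in MEF2-VP16-ER neurons, -0.37 ± 0.06, passed without the block too (adjusted p = 0.0188) but lost its call without replicate 2. The other probe sets of Dnajb5 had inductions of -0.36 and -0.39, not called. Their differences from 0 to 2.5 h in MEF2-VP16-ER neurons were -0.41 and -0.34, also not called. Dnajb4, a related J-protein, was higher with MEF2-VP16-ER at 2.5 h by 0.38 ± 0.06 (adjusted p = 0.00201, 0.642 without the block), at 2524, 2150.0 and 1732 against 1910, 1611 and 1378. The groups overlapped, but the MEF2-VP16-ER array was higher in each of the 3 replicate numbers, and the call was lost without replicate 3. Hmox1, heme oxygenase, had an induction of -0.39 ± 0.14 that did not pass (adjusted p = 0.354). Hspa1a, an Hsp70 gene of the stress-induced kind, was looked up after these values were seen. At 2.5 h the difference of MEF2-VP16-ER from control neurons was -0.38 ± 0.07 (lower, adjusted p = 0.00654, 0.334 without the block), at 178, 185 and 148 against 228, 254 and 197, and its induction (-0.34 ± 0.10) did not pass (adjusted p = 0.217). Hspa1a and Hspa1b are nearly identical in sequence, so its probe set may not separate them. Its call was lost without control 2.5 h replicate 2, without replicate 2 and without replicate 3.

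Among the ER stress genes, Herpud1 fell from 0 to 2.5 h in MEF2-VP16-ER neurons and no other member of the 18 passed in any comparison. Together with the rise of Hspb1, this made 2 of 32 members called in that comparison, against 2.33% of all probe sets. Herpud1 encodes an ER membrane protein that helps to assemble the machinery of ER-associated degradation. With MEF2-VP16-ER its intensity was 1624, 1246 and 1252 at 0 h, 1468, 1227 and 673 at 1 h, and 1151, 1004 and 618 at 2.5 h. Each replicate was lower at 2.5 h than at 0 h, and the groups at 0 and 2.5 h did not overlap. Control neurons had 1579, 1313 and 798 at 0 h, 1786, 1294 and 902 at 1 h, and 1613, 1120 and 811 at 2.5 h, a range that holds all but 2 of the MEF2-VP16-ER values.

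The fall of Herpud1 was -0.60 ± 0.12 log2 units (adjusted p = 0.0108, 0.999 without the block), with -0.49, -0.31 and -1.0 in the 3 replicate numbers. It lost the call without MEF2-VP16-ER 2.5 h replicate 3, where the difference was -0.39, without replicate 1, without replicate 3, with the replicate number as a random effect and in a fit of only the groups compared. The induction at 2.5 h, -0.54 ± 0.17, did not pass (adjusted p = 0.239), nor did the difference between constructs at 2.5 h, -0.34 ± 0.12 (adjusted p = 0.168).

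**Figure D3:**
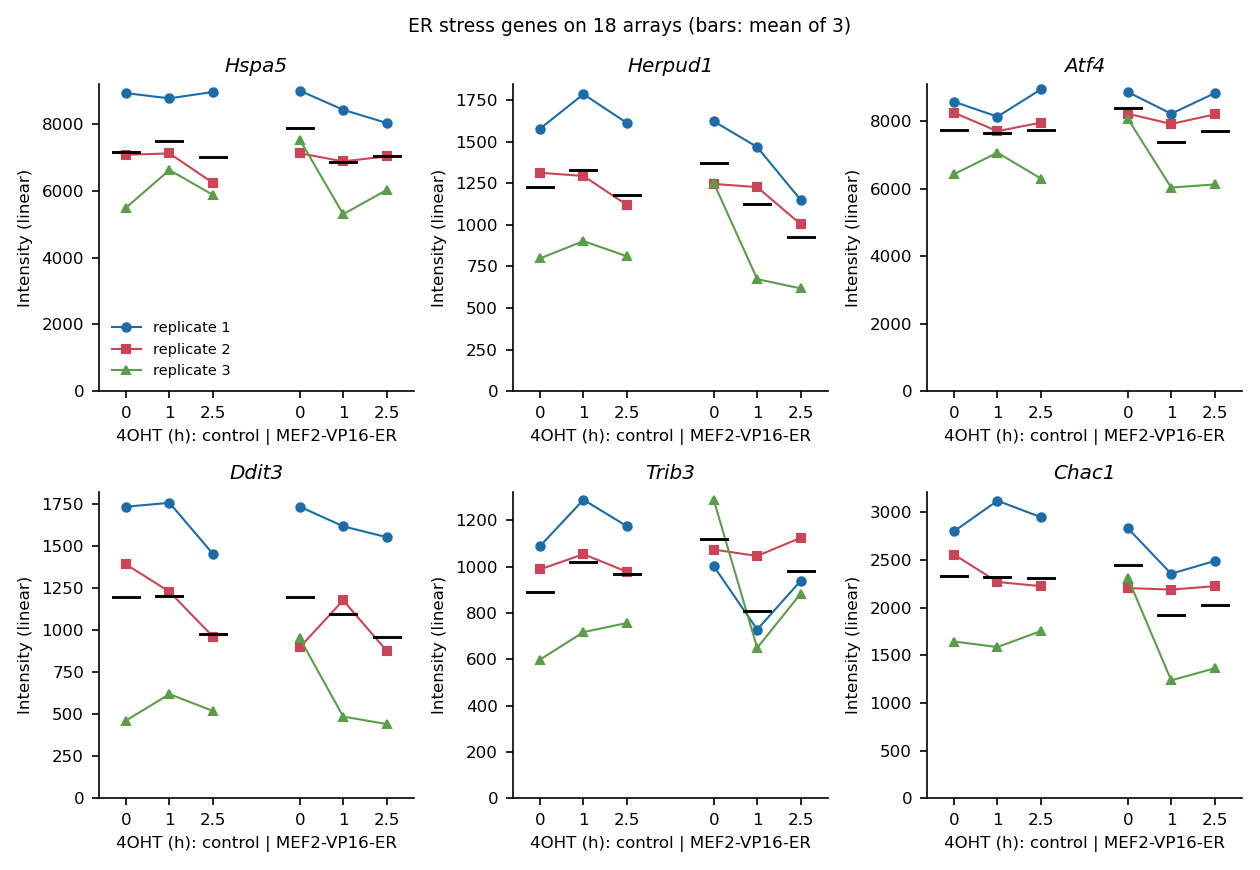
Intensity (linear) of 6 ER stress genes on each of 18 arrays, by hours of 4OHT, in control (left of each panel) and MEF2-VP16-ER neurons (right); lines join arrays of a replicate number and black bars are means of 3 arrays. Replicate 3 (triangles) is mostly the lowest, except on its MEF2-VP16-ER 0 h array, where Trib3 is at 1288 against 599 in control neurons.

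The 9 ER chaperones and folding enzymes had inductions near 0 at 2.5 h, with a median of -0.03 log2 units and 0 calls by limma, also at an unadjusted p under 0.05. Hspa5 (BiP), the ER Hsp70 and the textbook marker of the unfolded protein response, had 8039, 7039 and 6029 with MEF2-VP16-ER at 2.5 h and 8969, 6243 and 5883 in control neurons. These groups overlapped, and the difference between constructs was 0.02 ± 0.08. Hsp90b1, the ER form of Hsp90, had an induction of 0.00 ± 0.17, Dnajb9, a J-protein of BiP, 0.00 ± 0.11, and Dnajc3, a J-protein known to restrain PERK signalling, -0.15 ± 0.14. The lectin chaperones Calr and Canx were at -0.01 ± 0.09 and -0.03 ± 0.07. The disulfide isomerases Pdia3, Pdia4 and Pdia6 were at -0.02 ± 0.10, -0.03 ± 0.15 and -0.15 ± 0.10. Sel1l, the scaffold of the degradation complex in the ER membrane, was at -0.09 ± 0.18.

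Transcription factors of the pathway did not pass either. Xbp1 was the nearest, with an induction of -0.30 ± 0.11 (adjusted p = 0.374) that was negative in 3 of 3 replicate numbers. Its probe set reports total Xbp1 transcript and not the splicing by IRE1. Atf4 was at -0.13 ± 0.11, Atf6 at 0.03 ± 0.09 and Ddit3 (CHOP) at -0.22 ± 0.27. For Ddit3 the replicate numbers gave 0.09, 0.49 and -1.24, so that 1 replicate set the sign. Of the genes raised by ATF4 and CHOP, the pseudokinase gene Trib3 was at -0.33 ± 0.27 (-0.50 and -0.19 on its other probe sets), the glutathione-degrading enzyme gene Chac1 at -0.30 ± 0.17 and the asparagine synthetase gene Asns at -0.13 ± 0.13. None of the 3 passed.

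In a list of 60 further unfolded protein response genes, 57 were measured, and in the induction at 2.5 h 1 fell, none rose and the median was -0.07 (0.937% of all probe sets called). The gene that fell was Ddit4, an inhibitor of mTORC1 signalling raised by several stresses, at -0.92 ± 0.19 (adjusted p = 0.0331, 0.754 without the block) and in 3 of 3 replicate numbers. Its intensity with MEF2-VP16-ER was 2722, 3171 and 3810.0 at 0 h and 1727, 1891 and 1914 at 2.5 h. Control neurons at 2.5 h had 3281, 2674 and 3882, so the 2.5 h groups did not overlap. The call of the induction held in 8 of 18 fits that left out 1 array and in none that left out a replicate number.

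Atf3, a stress and activity-induced transcription factor downstream of ATF4, went the other way. With MEF2-VP16-ER its intensity was 921, 358 and 468 at 0 h, 1915, 970.0 and 613 at 1 h, and 1745, 1210.5 and 952 at 2.5 h. Control neurons had 821, 426 and 155 at 0 h, 1003, 576 and 224 at 1 h, and 959, 358 and 287 at 2.5 h. The induction at 1 h, 0.54 ± 0.36, did not pass (adjusted p = 0.675). The rise from 0 to 2.5 h was 1.21 ± 0.26 (adjusted p = 0.0175, 0.925 without the block), and that between constructs at 2.5 h was 1.41 ± 0.26 (adjusted p = 0.00406, 0.552 without the block). In replicate 3 the constructs differed by 1.50 already at 0 h and by 1.68 at 2.5 h. The call between constructs was lost without replicate 2. The rise from 0 h lost its call without replicate 1, without replicate 2, without MEF2-VP16-ER 0 h replicate 1 or 2 and without MEF2-VP16-ER 2.5 h replicate 2 or 3, and the induction at 2.5 h, 0.94 ± 0.36, did not pass (adjusted p = 0.417). Ppp1r15a, which lets translation resume after stress, was at -0.37 ± 0.16 and the tRNA synthetase gene Aars1 at -0.15 ± 0.08, both not called.

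In MEF2-VP16-ER neurons all 18 ER stress genes were lower at 2.5 h than at 0 h, with a median of -0.16 log2 units against 0.00 over all probe sets, and 1 replicate number carried most of it. The median over these genes was -0.04 in replicate 1, -0.05 in replicate 2 and -0.41 in replicate 3. Before 4OHT the same genes were higher with MEF2-VP16-ER than with control in 17 of 18 cases (median 0.14), at 0.01, 0.05 and 0.39 in replicates 1, 2 and 3. The MEF2-VP16-ER 0 h array of replicate 3 enters both comparisons: it held 951 for Ddit3 and 1288 for Trib3, where the control 0 h array of that replicate held 462 and 599. Without this array the median change from 0 to 2.5 h was -0.05 with 14 of 18 negative, and that between constructs at 0 h was 0.04 with 11 of 18 positive. No member was called between constructs at 0 h (0.00322% of all probe sets called), and 6 of 32 had an unadjusted p under 0.05, against 14.5% of all probe sets.

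The cytosolic members did not follow this pattern of replicate 3. Between constructs at 0 h all 11 were positive (median 0.17), with 0.05, 0.24 and 0.09 in replicates 1, 2 and 3, so replicate 2 was the highest. Without the MEF2-VP16-ER 0 h array of replicate 3 the median was 0.21. Over the 18 fits that left out 1 array it ranged from 0.11 to 0.21. After quantile normalization the median was 0.10 with 9 positive. Over all genes with 1 probe set each, 8566 of 14217 were positive with a median of 0.03. In the induction at 1 h the comparison shares these 0 h arrays. There 0 members were called by limma (0.0290% of all probe sets), 6 had an unadjusted p under 0.05 (8.41% of all probe sets), 17 of 18 ER stress genes were negative and the ER stress medians were -0.05, 0.00 and -0.57 in replicates 1, 2 and 3. In control neurons alone, 0 of 32 members were called by limma at 1 h (0% of all probe sets called) or at 2.5 h (0.00322%), and 0 had an unadjusted p under 0.05 (4.40% and 4.27% of all probe sets). In MEF2-VP16-ER neurons at 1 h none was called (0.187%), while 13 of 32 had an unadjusted p under 0.05 (8.38% of all probe sets), 10 of them ER stress genes, in a comparison that holds the same 0 h array of replicate 3.

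**Figure D4:**
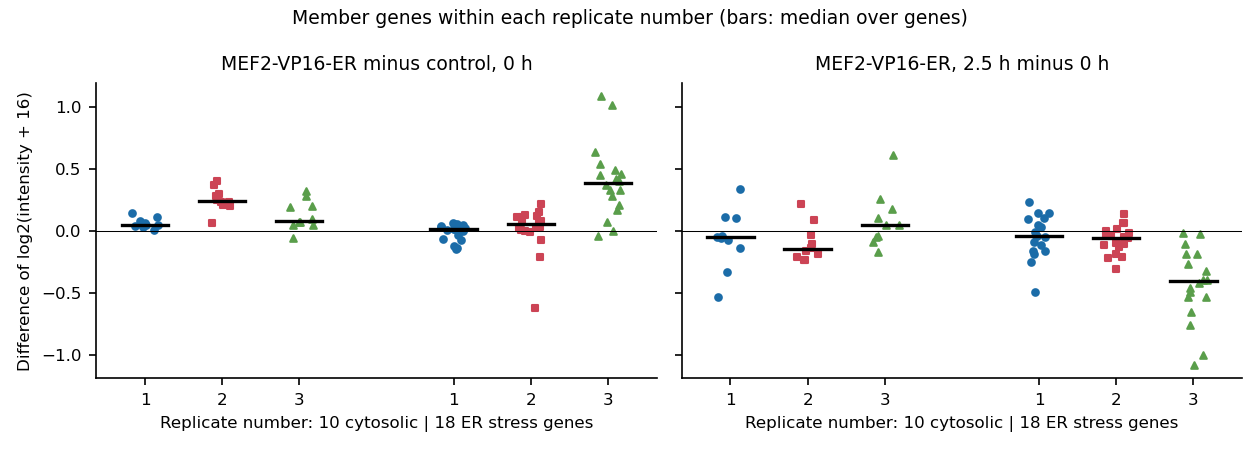
Difference in log2 units within each replicate number, for 10 cytosolic members other than Hspb1 and 18 ER stress members, between constructs before 4OHT (left) and from 0 to 2.5 h in MEF2-VP16-ER neurons (right); circles, squares and triangles are genes in replicates 1, 2 and 3, spread sideways for sight, and bars are medians over genes. The ER stress medians in replicate 3 are 0.39 and -0.41, while those in replicates 1 and 2 lie between -0.05 and 0.05.

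Replicate numbers differed in the level of many of these genes. Over the 6 groups, the replicate number accounted for a median of 50.3% of the variance of a member, 57.2% for the ER stress genes and 44.6% for the cytosolic ones, against 21.2% over all probe sets. This and the later comparisons of replicate numbers with all probe sets were not matched for intensity. Even the dimmest member, Bag3, was at percentile 54.1 of mean log2 among all probe sets. Ddit3 had the widest gap, with replicate 1 at 2.87-fold the level of replicate 3. Hspb1 was at 2.61-fold, Herpud1 at 1.84-fold, Chac1 at 1.69-fold, the co-chaperone Bag3 at 1.67-fold, Dnajb9 at 1.53-fold and Hspa5 at 1.42-fold. Replicate 3 was the lowest in 13 of 18 ER stress genes (72.2%, against 38.1% of all probe sets).

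Cytosolic chaperones were divided on this axis. Hsph1, Stip1, Dnajb1, Hspa4 and Dnaja1 were higher in replicate 3, with replicate 1 minus replicate 3 between -0.38 and -0.21 log2 units, whereas Bag3, Cryab and Hspb1 were lower in it. The median of replicate 1 minus replicate 3 was 0.34 over the ER stress genes and -0.10 over the cytosolic genes, against 0.00 over all probe sets. The ratio of 3' to 5' signal of beta-actin, a measure of RNA integrity on these arrays, was 2.22 to 2.77 in replicate 1, 2.18 to 2.61 in replicate 2 and 1.84 to 2.36 in replicate 3. The same ratio of GAPDH was 1.059 to 1.283, 1.066 to 1.151 and 1.025 to 1.081 in that order. The part of RNA integrity in these gaps was not tested.

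**Figure D5:**
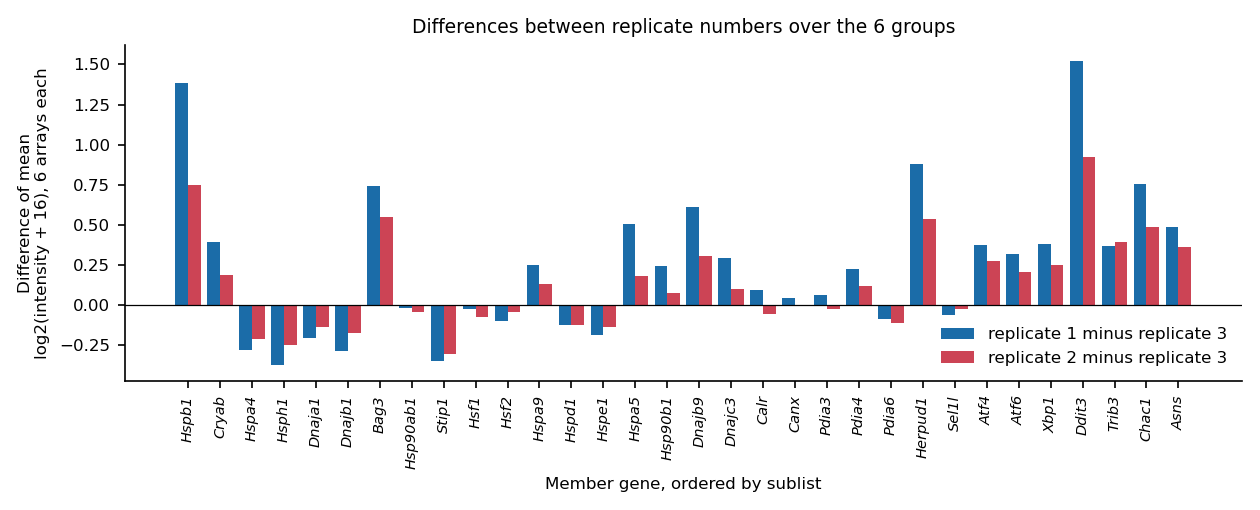
Difference in mean log2(intensity + 16) of replicate 1 (blue) and replicate 2 (red) from replicate 3, over 6 arrays each, for the 32 measured members ordered by function. Hspb1 and Ddit3 reach 1.38 and 1.52, most ER stress genes on the right are above 0, and Hsph1, Stip1 and Dnajb1 are below it.

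The heat shock core and the ER stress element lay in different classes of members. The heat shock core was found in 9 of 27 matched members, namely Hspb1, Hsph1, Dnaja1, Dnajb1, Bag3, Stip1, Hspa9, Hspd1 and Hspe1, and in 15.9% of all 33469 promoters of the table. The 3-unit element was found in Hsph1, Dnaja1, Hspd1 and Hspe1 (0.798% of all promoters). The windows of Hspd1 (chr9:64083988-64084287, minus strand) and Hspe1 (chr9:64084077-64084376, plus strand) overlap. Their heat shock matches are the same bases, so the counts for the core and the element take this shared site once for each of these genes. Of the 9 members with a core, Hspb1 rose and the other 8 had inductions at 2.5 h from -0.31 to 0.02, none called. The ER stress element was found in Hspa5, Hsp90b1, Dnajc3, Calr, Canx and Xbp1 (0.0657% of all promoters), none of which was called. The C/EBP-ATF composite was found in Herpud1, Trib3, Chac1 and Hspa9 (3.98%), and the cAMP response element TGACGTCA in Hsp90ab1 (1.83%). An exact match to the MEF2 site YTAWWWWTAR was found in none of the 27 member windows (3.29% of all promoters). Y stands for C or T, W for A or T and R for A or G, and near matches were not counted. Of 2 small heat shock genes outside the members that were searched too, Hspb6 held none and Hspb3 held 1 MEF2 site, 51 bases before the start. More distant sites lie outside these windows. Motif matches are letters in a window and say nothing on binding.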

How the data were processed

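The deposited table holds 1 intensity per probe set and array on a linear scale. How the authors normalized it was not given in the sources used here; per the labels, total RNA from hippocampal neurons was labelled with biotin for Affymetrix arrays. Array medians lay between 190.3 and 196.9, and the number of arrays limits the precision. After leaving out 57 control probe sets, all other 31042 were tested without a filter on log2(intensity + 16).

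Gene symbols came from the platform annotation: 20826 probe sets had 1 symbol, 436 several and 9780 none. Groups came from the labels. All 18 arrays entered 1 limma model with 6 group means and the replicate number as a block (10 residual degrees of freedom, prior 5.13), moderated with eBayes, with Benjamini-Hochberg adjustment over all probe sets within each of 10 comparisons. Residuals of same-numbered arrays were correlated above 0.1 in 44 of 45 pairs (lowest 0.0677, MEF2-VP16-ER 0 h and 1 h of replicate 2), and each of 18 arrays was closest to one of its own number. Whether the numbers pair samples is thus a hint from the data, and the labels do not state it; for called genes the text gives the unblocked adjusted p where the call is lost without the block, once in general for the members.

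Members and lists were chosen with earlier results of these data known. Called members are named array by array, others by value, and of the further lists the called genes and those of smallest p in the induction at 2.5 h. Promoters of Hspb6 and Hsph1, values of Hspb2, Hspb3, Hspb9 and Hspa1a, the class medians, and the alternative settings for these genes and for called markers were added after seeing values. Marker genes of 8 cell types were summed as intensities. Comparisons share the 0 h arrays. Alternatives were no block, a random block (duplicateCorrelation), centring arrays on their medians, quantile normalization, an added 1 or 64 in place of 16, the brighter probe sets only (above the median), a robust eBayes with a trend, fits of just the groups compared, the probe set of smallest p, and leaving out single arrays or replicate numbers. Tested on simulated data, the fitting steps found nearly all of the larger known changes and fewer of the small ones. The simulated data held replicate shifts of the form that the block removes, and changes only in probe sets above the median level. They therefore could not test the choice of block or the recovery of changes in dim genes. A second ER stress motif, searched after values were seen, is not reported here. Software: limma 3.58.1 in R 4.3.3, and matplotlib 3.10.9 in Python 3.11.15.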

Additional observations from a re-analysis of the deposited data

Results flagged for a closer look

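The induction of Hspb1 differed between the times: it was 0.27 ± 0.19 log2 units at 1 h and 1.50 ± 0.19 at 2.5 h, and the test of the difference gave 1.23 ± 0.19 (limma with the replicate block, adjusted p = 0.00812), with 1.20, 1.32 and 1.17 in replicates 1, 2 and 3. The difference was not called without the block (adjusted p = 1.00).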

How the results depend on the processing

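The number of member genes called turned on the replicate block. Without it, limma called 0 members across the 6 groups, 0 in the induction at 2.5 h, 0 in the late minus early induction, 0 from 0 to 2.5 h with MEF2-VP16-ER and 0 between constructs at 2.5 h, where the blocked fit called 2, 1, 1, 2 and 2. With the number as a random effect (correlation 0.233) the first 4 counts were 1, 0, 0 and 1, and in fits of only the groups compared the late minus early induction had 0 and the change from 0 to 2.5 h had 1. Over all probe sets the induction at 2.5 h had 291 calls with the block and 55 without it, the change across groups 845 and 233, and constructs at 2.5 h 1083 and 397; all 10 comparisons had fewer or equally many without it. Whether the block removes a true pairing was not tested.

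Leaving out 1 array or 1 replicate number gave 1 to 3 members across the groups, 1 in the induction at 2.5 h, 0 to 1 in late minus early, 1 to 3 from 0 to 2.5 h with MEF2-VP16-ER and 1 to 3 between constructs at 2.5 h. Of 40 results for single genes, 10 calls were kept without the block and 24 with the random block. Leaving out replicate 1, 2 or 3 kept 23, 17 and 26. Leaving out 1 array kept 28 to 40, with 28 without MEF2-VP16-ER 2.5 h replicate 3. Quantile normalization kept 39 calls, median centring 40, pseudocounts of 1 and 64 40 and 38, and eBayes with trend and robust 38. None of these settings turned a direction. Of the class medians, a reading added after seeing the data, the induction of the 9 ER chaperones at 2.5 h was -0.03, and ranged from -0.128 to 0.00192 as replicate numbers were left out, turning positive without replicate 3; the cause was not tested. Dim genes such as Hspb3 have differences shrunk by the added 16.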
